A study of Homo sapiens with 5 samples.

Results

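The regions described here were bound by MYC and E2F1 and had no called Fra-1 binding. They were chosen by overlap of peak lists: a MYC peak on chromosomes 1 to 22 or X was taken when it shared at least 1 bp with an E2F1 peak and none with a Fra-1 peak. This gave 3652 of 4857 MYC peaks (75.2%), out of 59069 peaks of the 3 factors. A further 1018 MYC peaks (21.0%) overlapped both other factors and are called 3-factor peaks below, and 187 (3.85%) overlapped no E2F1 peak. The peaks come from chromatin immunoprecipitation with sequencing (ChIP-Seq) in LM2 cells, a highly metastatic derivative of the triple-negative MDA-MB-231 breast cancer line. The labels describe the cells as untreated, and each factor was precipitated with its own antibody from chromatin of this line. There was 1 library per factor and no replicate, and all lists were called against the same input DNA library. EZH2 and input libraries are also among the samples, but no peak list of theirs was used here.

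MYC is a basic helix-loop-helix protein that binds DNA as a dimer with MAX, with the E-box CACGTG as its best-known site, and is known for driving genes of ribosome production and growth. E2F1 binds GC-rich sites at the promoters of cell-cycle and DNA replication genes and is held in check by pocket proteins such as RB. Fra-1 (encoded by FOSL1) pairs with JUN proteins to form AP-1, which binds TGACTCA, often at sites far from genes.

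The strongest of the shared regions are shown first by their sequence. Of the 12 regions with the largest MYC fold enrichment over input, 6 carried CACGTG within 50 bp of the MYC summit. They are printed here from GRCh37 (the sequence of hg19), plus strand, 5′ to 3′, with the E-box in capitals. Windows that touch an annotated UTR were kept to 30 bases and the others had 46.
CCDC47 and DDX42, chr17:61851197-61851226: gctgtgtgggacCACGTGgccagaggcaag
G6PC3, chr17:42148038-42148067: tgcaacagtggcCACGTGgggccctgagga
TFAP4, chr16:4321332-4321377: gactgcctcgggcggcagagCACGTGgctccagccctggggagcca
SNHG15, chr7:45026128-45026173: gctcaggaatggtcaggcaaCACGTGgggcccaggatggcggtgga
IFRD2, chr3:50329456-50329501: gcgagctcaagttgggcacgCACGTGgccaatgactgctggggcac
GNL3 and PBRM1, chr3:52720042-52720071: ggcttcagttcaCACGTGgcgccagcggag
In all 6 windows the centre of the E-box lay within 15.5 bp of the MYC summit. The E-box lay in an annotated UTR at CCDC47 and DDX42, G6PC3 and GNL3, in an intron of TFAP4, and in exons of SNHG15 and IFRD2.

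Another 3 of the 12 carried no CACGTG but a non-canonical E-box, here CACGAG or CACGCG on either strand, shown in capitals.
PPAN, chr19:10217039-10217068: gacgcaggaggcCTCGTGgaggacacagca
SNHG16, chr17:74553846-74553891: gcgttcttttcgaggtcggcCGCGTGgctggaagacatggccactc
NCBP2, chr3:196669400-196669429: ggcgactcccggCACGAGgctgcgtccgcg
The remaining 3, at RPL5, KLF16 and RPL10A, had none of the 5 E-box forms within 50 bp. The forms, searched on both strands, were the canonical CACGTG with the variant CACGCG, the variant CACATG, the variant CACGAG and the variant CATGCG. At KLF16 a CACGTG lay 51.5 bp from the summit, just outside the window.

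Outside promoters, 4 of the 5 regions with the largest MYC enrichment carried CACGTG within 50 bp, all between genes.
Near RHBDF2, chr17:74502638-74502683: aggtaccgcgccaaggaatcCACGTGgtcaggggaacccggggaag
Near NUMBL, chr19:41168857-41168902: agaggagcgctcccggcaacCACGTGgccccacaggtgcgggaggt
Near CCND1, chr11:69451409-69451454: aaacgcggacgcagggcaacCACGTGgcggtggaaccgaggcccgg
Near COA7, chr1:53169072-53169117: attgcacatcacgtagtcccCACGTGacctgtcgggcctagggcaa
The fifth lay in an exon of SUN1, with a CACGTG 69.5 bp from the summit.

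The values at these regions follow. Fold enrichment is the deposited ratio of fragment pileup at the summit to the local input background, and it was used to rank these regions, so it is a description. At the shared promoter of CCDC47 (an endoplasmic reticulum protein) and DDX42 (an RNA helicase of the spliceosome), the MYC fold enrichment was 30.2 and that of E2F1 was 35.8. At G6PC3, a glucose-6-phosphatase, MYC reached 28.5 and E2F1 45.5. At RPL5, a protein of the large ribosomal subunit, MYC reached 28.2 and E2F1 60.7. All these summits lay within 85 bp of an annotated start site.
KLF16, a zinc finger factor, had a MYC fold enrichment of 25.8 and an E2F1 fold enrichment of only 14.5, and was the only one of the 12 besides RPL10A (22.4 for MYC and 19.0 for E2F1) with more MYC than E2F1 enrichment. At PPAN, which acts in ribosome biogenesis, the values were 25.7 for MYC and 53.1 for E2F1. TFAP4, itself an E-box-binding factor, had 24.8 for MYC and 38.4 for E2F1, 1473 bp downstream of its start site. The host genes of small nucleolar RNAs SNHG15 (24.6 for MYC, 54.4 for E2F1) and SNHG16 (22.9 and 54.1) were also among the 12. The other MYC values were 23.8 at IFRD2, 22.4 at NCBP2, a subunit of the nuclear cap-binding complex, and 22.1 between GNL3 (nucleostemin) and PBRM1, a chromatin remodeller subunit. The nearest Fra-1 peak to any of the 12 lay 15452 bp away, at KLF16, and the most distant 197218 bp away, at PPAN.
Outside promoters the top MYC fold enrichment was lower. It was 16.2 for the region 4765 bp upstream of RHBDF2, 15.6 for the region 2928 bp from NUMBL, and 13.6 for the region 4514 bp upstream of CCND1, the cyclin D1 gene. In the exon of SUN1, a nuclear envelope protein, it was 12.5, and 5082 bp upstream of COA7 it was 11.8. E2F1 was below MYC at RHBDF2 (9.30), NUMBL (13.4) and SUN1 (10.8), and above it at CCND1 (18.5) and COA7 (21.2).

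Over all 3652 regions, MYC peaks were narrow, with a median width of 171 bp (interquartile range 120 to 267). The MYC fold enrichment ranged from 3.17 to 30.2 around a median of 6.72 (interquartile range 5.69 to 8.31). E2F1 fold enrichment at the overlapping peak ranged from 3.05 to 83.9, with a median of 28.4 (17.2 to 40.1). E2F1 was the higher of the pair in 3528 regions (96.6%). The median −log10 q was 5.91 for the MYC peaks and 80.3 for the E2F1 peaks. These values chose the regions and are given with no test. The libraries differed in depth, which limits how far values of different factors can be set against each other.
Spearman's rho of MYC with E2F1 fold enrichment was 0.137 over the 3652 regions, which share the input library and its local background. By pileup it was 0.343 over the same regions. By fold enrichment it was 0.0750 over the 203 regions outside promoter windows and 0.280 over the 1018 3-factor peaks.

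**Figure D1:**
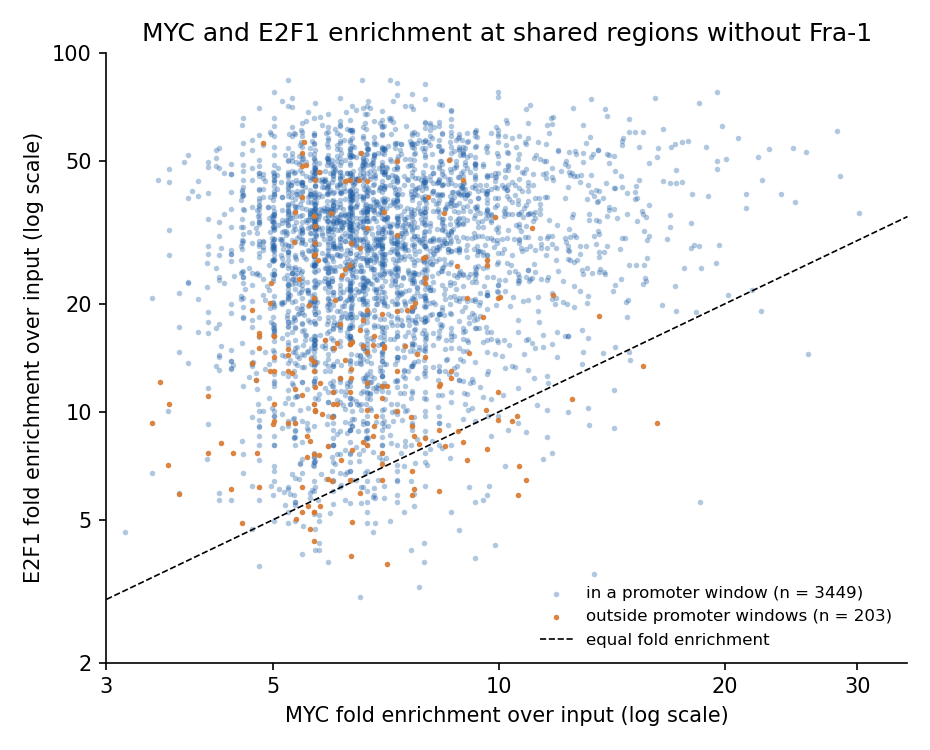
MYC fold enrichment (x axis, log scale) against E2F1 fold enrichment (y axis, log scale) at each of the 3652 regions, in promoter windows (blue) and outside them (orange), with a dashed line where both are equal. Most points lie above the line, and 124 regions lie on or below it.

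The MYC peak was usually a small stretch within a broad E2F1 peak. The MYC peak lay wholly inside its E2F1 peak in 3424 regions (93.8%, 95% Wilson interval 92.9 to 94.5%), and the MYC summit did so in 99.2%. The MYC and E2F1 summits were a median of 85 bp apart. They were within 50 bp in 36.0% and within 250 bp in 74.9% of the regions. All intervals given here are for counting error within these libraries and treat neighbouring regions as independent.
Several regions often sat under the same E2F1 peak. The regions overlapped 3110 E2F1 peaks, of which 2634 held 1 of them, 417 held 2, 48 held 3, 10 held 4 and 1 held 6. The last was 7500 bp wide and lay at PLEC, which encodes the cytoskeletal linker plectin, with MYC fold enrichment from 5.69 to 8.97. A second E2F1 peak at PLEC held 4. Other E2F1 peaks with 4 regions lay at RPL12, CSE1L, G6PC3, NOP56, EIF4B, HCFC1, DCAF13, ST3GAL1 and EEF1A1, among which RPL12, EIF4B and EEF1A1 encode parts of the translation machinery. E2F1 peaks with such a region had a median width of 786.5 bp, against 269 bp for the others, and since any overlap counted, wider peaks were more likely to hold a region. E2F1 peaks with such a region made up 555 of the 1000 with the largest −log10 q, beside 3110 of all 36901. The part of peak width in this was not tested.

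The regions were concentrated at promoters, more than MYC peaks that also overlapped Fra-1. A promoter window reached 2 kb upstream and 2.5 kb downstream of an annotated transcription start site (TSS). Of the regions, 3449 of 3652 (94.4%, 93.7 to 95.1%) lay in one. The share was 59.9% (56.9 to 62.9%) for the 3-factor peaks, a difference of 34.5 percentage points (95% Newcombe interval 31.4 to 37.6). For MYC peaks without E2F1 it was 55.1%, a difference of 39.4 points (32.4 to 46.6). Position was not used to choose the regions, but leaving out Fra-1 peaks removes peaks of a list with a distribution of its own, so the comparison is not independent of the choice.
The MYC summits lay a median of 109 bp from the nearest TSS (interquartile range 33 to 344), against 1053 bp for 3-factor peaks. Within 200 bp were 64.3% of the summits (62.7 to 65.8%) against 32.5% (29.7 to 35.5%), and within 1 kb 90.8% against 49.6%, a difference of 41.2 points (38.0 to 44.4). Among summits within 1 kb, 52.5% (50.8 to 54.2%) lay downstream of the TSS, compared with 39.8% (35.6 to 44.2%) of 3-factor summits. The E2F1 summits at the same regions lay a median of 65 bp from a TSS.

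**Figure D2:**
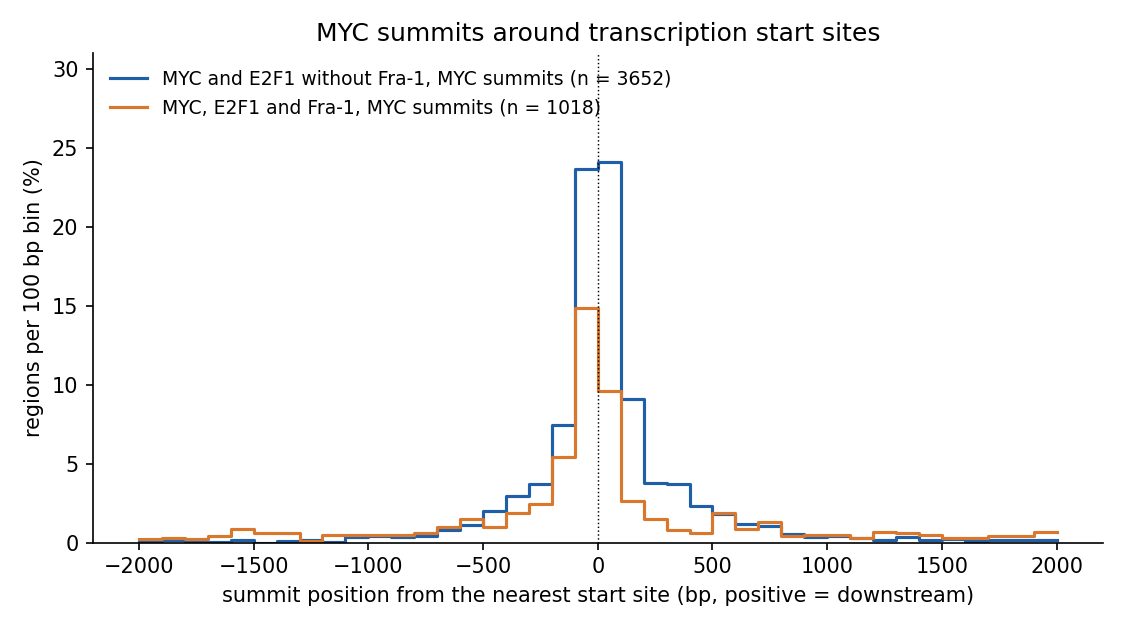
Position of MYC summits relative to the nearest TSS (x axis, bp, 100 bp bins) as a percentage of regions per bin (y axis), for the 3652 regions without Fra-1 (blue) and the 1018 3-factor peaks (orange). The blue curve is higher in the bins next to the TSS, with 24.1% against 9.63% in the first 100 bp downstream, and the curves are close or cross beyond 500 bp.

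Divergent promoters, where a pair of genes is read in opposite directions from neighbouring start sites, were more frequent than in the peak sets compared here. Of the 3449 promoter regions, 408 (11.8%, 10.8 to 12.9%) had their summit within 1 kb of both canonical TSS of a divergent protein-coding pair. The share was 4.43% (3.06 to 6.36%) among 3-factor promoter peaks, a difference of 7.40 points (5.21 to 9.17). It was also 4.43% (4.14 to 4.73%) among 18974 promoter peaks of E2F1 without MYC and Fra-1, again a difference of 7.40 points (6.32 to 8.56). The median TSS distance was 98 bp for promoter regions, 153 bp for 3-factor promoter peaks and 166 bp for E2F1-only promoter peaks. Its part in these differences was not tested.
The remaining 203 regions lay outside promoter windows, 105 of them between genes, 77 in introns and 21 in exons. They were a median of 7300 bp from a TSS, and 82 lay more than 10 kb away. Their MYC fold enrichment (median 6.33) was close to that of promoter regions (6.75), whereas their E2F1 fold enrichment was lower (13.0 against 29.1).

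Around the summits the DNA was GC-rich and kept its CpG dinucleotides, as is typical of CpG island promoters. The median G and C content in 501 bp was 63.7% (95% interval of the median 63.5 to 63.9%), compared with 59.5% (58.9 to 59.9%) at 3-factor peaks. The CpG observed/expected ratio was 0.785 (0.779 to 0.791) against 0.373 (0.353 to 0.389). Within promoter windows the gap was smaller but remained, with 0.793 (0.788 to 0.799) against 0.564 (0.508 to 0.620). Outside them the ratio was 0.489 (0.451 to 0.534) against 0.286 (0.267 to 0.299). For reference, it was 0.722 at promoter peaks of E2F1 alone and 0.778 at the canonical TSS of all protein-coding genes. The median G and C content was 61.9% at promoter peaks of E2F1 alone and 64.7% at these TSS, which is above that of the regions. Inside promoter windows it was 63.9% for the regions and 61.3% for 3-factor peaks.

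E-boxes marked a part of the regions. CACGTG lay within 50 bp of the MYC summit in 615 of 3652 regions (16.8%, 15.7 to 18.1%). In windows of the same length it lay at 3.3% of the canonical TSS of 19819 protein-coding genes and at 2.19% of the E2F1 summits of promoter peaks without MYC and Fra-1. Windows 2 kb to either side of the MYC summits held it in 1.26%. The share at MYC summits of promoter regions (16.2%) exceeded that at E2F1 summits of E2F1-only promoter peaks by 14.0 points (12.8 to 15.3). With E2F1 summits on both sides the shares were 8.59% and 2.19%, a difference of 6.41 points (5.42 to 7.496).
Compared with 3-factor peaks, CACGTG was 2.89 points (0.339 to 5.24) more frequent over all regions. Inside promoter windows the difference was 2.08 points (−1.14 to 4.92), an interval that includes 0. Outside, CACGTG lay at 57 of 203 summits (28.1%, 22.3 to 34.6%) against 56 of 408 (13.7%, 10.7 to 17.4%), a difference of 14.4 points (7.54 to 21.6). The interval of this difference includes 0 when MYC and E2F1 peaks cover at least 50% of each other (9.54 points, −3.65 to 23.7) and with lists of equal length (9.46, −5.85 to 21.7), and the difference is 8.46 points (3.32 to 13.7) with protein-coding start sites alone. MYC peaks without E2F1 carried it most often, in 61 of 187 (32.6%, 26.3 to 39.6%).
Of the other forms, CACGCG lay at 12.6% of the regions and 7.17% of the 3-factor peaks, a difference of 5.40 points (3.36 to 7.21). CACATG had the opposite pattern, with 5.78% against 14.6%, a difference of −8.86 points (−11.3 to −6.67). This difference was −3.07 points (−5.66 to −0.949) inside promoter windows and −12.4 points (−18.1 to −6.04) outside. Windows 2 kb to either side of the MYC summits of the regions held CACATG in 5.18%, a share near the 5.78%. Any of the 5 forms lay at 39.8% (38.2 to 41.4%) of the regions and 42.0% (39.0 to 45.1%) of the 3-factor peaks, and the interval of this difference includes 0 (−5.72 to 1.11 points). With E2F1 summits on both sides, any form lay at 28.1% of promoter peaks with such a region and 13.5% of E2F1-only promoter peaks. This was a difference of 14.7 points (13.0 to 16.4). The share was 16.1% at the canonical TSS of all protein-coding genes.

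CACGTG was most frequent where MYC enrichment was highest and least frequent where E2F1 enrichment was highest. With the regions ranked by MYC fold enrichment into 4 classes of 913, CACGTG lay at 11.4% (9.49 to 13.6%), 10.1%, 16.8% and 29.1% (26.3 to 32.2%) from the lowest to the highest. The intervals of the lower pair of classes overlap. In classes by E2F1 fold enrichment, the shares were 21.2% (18.7 to 24.0%), 20.2%, 15.2% and 10.7% (8.89 to 12.9%). Peak width also differed, with a median of 138 bp in the lowest and 312 bp in the highest class by MYC. The classes by E2F1 differed in position, since 84.9% of the lowest and 98.4% of the highest lay in promoter windows, and the part of width and position in these shares was not tested.
E-boxes were denser at the MYC than at the E2F1 summit. Within 25 bp of the MYC summit there were 2.21 E-boxes per kb, compared with 0.991 within 25 bp of the E2F1 summit of the same regions. From 475 to 500 bp these values were 0.208 and 0.323. Of 905 regions with a CACGTG within 250 bp of both summits, it was nearer to the MYC summit in 589, nearer to the E2F1 summit in 311 and at equal distance in 5. A CACGTG lay within 250 bp of the MYC summit in 1256 regions, and 206 had more than 1.

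**Figure D3:**
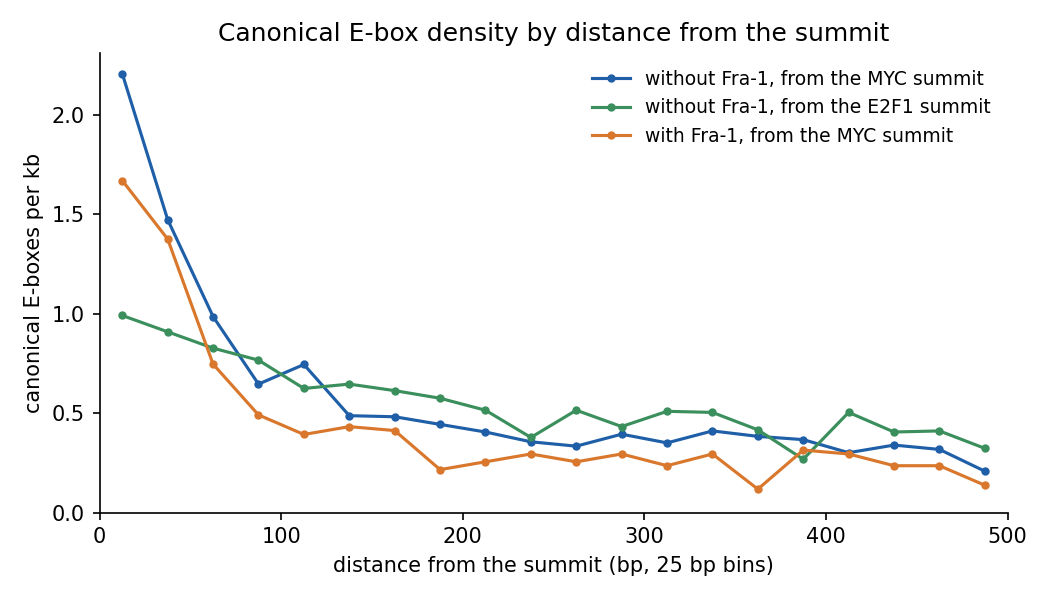
Number of CACGTG E-boxes per kb (y axis) by distance from a summit (x axis, bp, 25 bp bins), from the MYC summits (blue) and the E2F1 summits (green) of the regions without Fra-1 and from the MYC summits of the 3-factor peaks (orange). The blue curve falls from 2.21 to 0.208 per kb, and the green curve is flatter, from 0.991 to 0.323.

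The AP-1 site was rare. TGACTCA lay within 50 bp of the MYC summit in 29 regions (0.794%, 0.553 to 1.14%), against 257 of 1018 3-factor peaks (25.2%, 22.7 to 28.0%). Since absence of a Fra-1 peak chose the regions and Fra-1 binds this site, this difference is a description. E2F1-only promoter peaks overlap no Fra-1 peak, whereas 255 regions had a Fra-1 peak elsewhere under the same E2F1 peak. With E2F1 summits on both sides, the share with TGACTCA was 1.23% at promoter regions and 1.93% at E2F1-only promoter peaks, a difference of −0.697 points (−1.09 to −0.192). At the MYC summits of promoter regions it was 0.638%. Windows to the sides held it in 1.31%.
The E2F motif (TTTCCCGC, TTTGGCGC, TTTCGCGC or TTTGCCGC) lay at 76 MYC summits (2.08%, 1.67 to 2.60%). At the E2F1 summits of promoter regions its share was 3.53% (2.92 to 4.26%), compared with 2.07% (1.87 to 2.28%) at E2F1-only promoter peaks, a difference of 1.46 points (0.814 to 2.22). Counted per region, 131 of 3652 (3.59%) had an E2F motif at the E2F1 summit, and CACGTG lay at the MYC summit of 21 of these 131, beside 615 of all 3652.
The GC box GGGCGG, known as a site of SP and KLF factors, lay at 23.0% (21.7 to 24.4%) of the MYC summits and 13.7% (11.7 to 15.9%) of 3-factor summits, below the 35.9% of all canonical TSS. The ETS site CCGGAAG lay at 7.91% and 4.72%, and the difference inside promoter windows had an interval that includes 0 (−1.12 to 3.28 points). The CCAAT sequence lay at 10.8%, and at 11.4% of the windows to the sides.

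**Figure D4:**
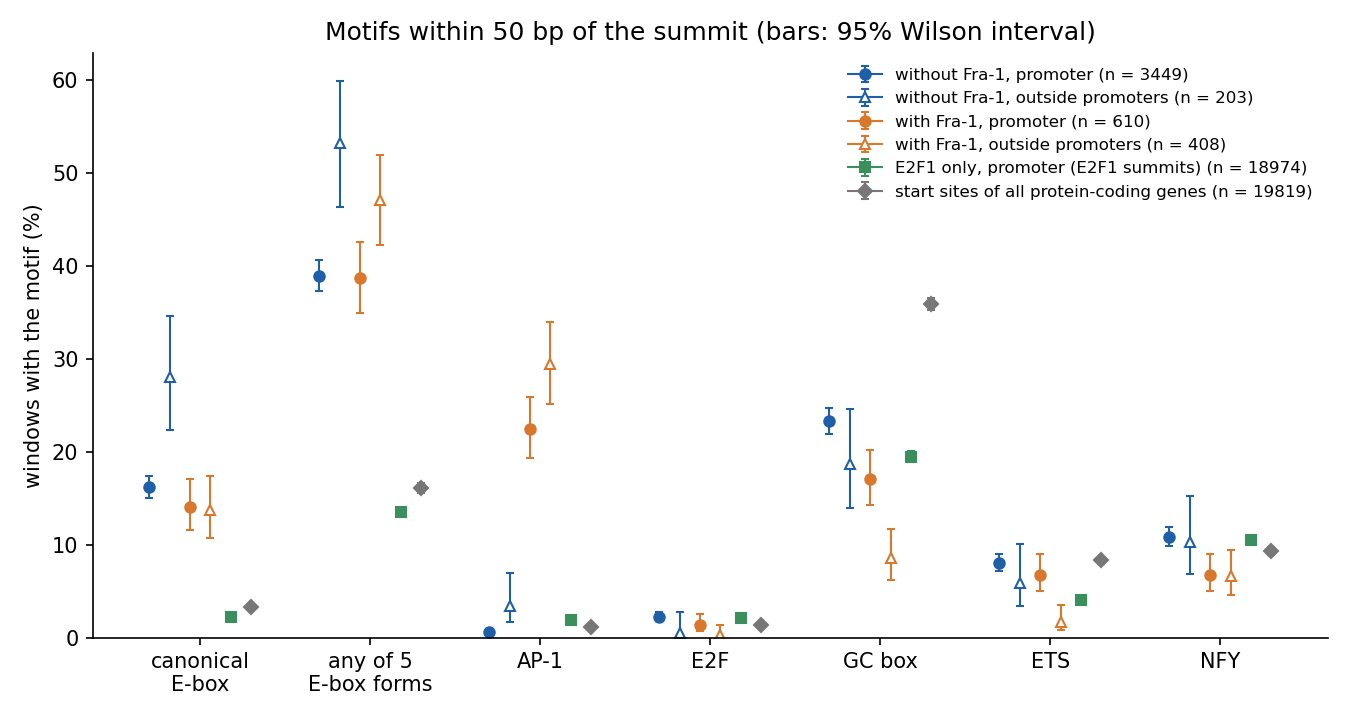
Share of windows with a motif within 50 bp of the summit (y axis, percent, bars are 95% Wilson intervals) for 7 motifs, in the regions without Fra-1 (blue) and 3-factor peaks (orange), in promoters (filled circles) or outside (open triangles), E2F1-only promoter peaks at E2F1 summits (green) and canonical TSS (grey). The canonical E-box reaches 28.1% in the blue regions outside promoters, and the AP-1 site is at 0.638% of the blue and 22.5% of the orange promoter sets.

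The median distance to the nearest Fra-1 peak was 37641.5 bp (interquartile range 11058 to 93603). It depended on the length of the Fra-1 list and was 142370 bp with lists of equal length. With the full lists, 2781 regions (76.2%) were more than 10 kb away from one. Within 1 kb lay 342 regions (9.36%, 8.46 to 10.4%), and 255 had a Fra-1 peak elsewhere under the same E2F1 peak. Of the 342 within 1 kb, 3 carried TGACTCA.
At the edge of the rule, the regions closest to a Fra-1 peak were at RCN1 (1 bp), C15orf39 (4 bp), MED16 (5 bp), PRC1 (6 bp) and KPNA4 (7 bp). Their MYC fold enrichment was 6.08, 10.5, 5.01, 6.02 and 9.03. Just outside were peaks that overlapped Fra-1 by 3 bp at CD55 and 13 bp at PHF19, with 5.46 and 6.30. The smallest overlaps with E2F1 among the regions were 3 bp at SRPX, 12 bp at SOWAHC and 25 bp at LRP2, with MYC values of 7.32, 5.24 and 7.64. MYC peaks at FOXN3, RARA and ANGEL1 missed an E2F1 peak by 5, 16 and 25 bp, with values of 5.46, 7.04 and 6.33.

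In all, 3154 of 20098 protein-coding genes (15.7%) had at least 1 region in a promoter window, and 2.89% had a 3-factor peak there. A single region was found for 2299 genes, 2 for 672 and 3 for 138. Both a region without Fra-1 and a 3-factor peak were found for 201 of the 3154 genes, beside a 3-factor peak at 580 of all 20098. Besides the region, 548 genes (17.4%) had a Fra-1 peak somewhere in a promoter window, a larger share than the 13.2% of all protein-coding genes. Of the regions, 175 (4.79%) lay only at non-coding genes, and 809 (22.2%) lay in promoter windows of 2 protein-coding genes. Over all 63827 annotated genes, 4310 had a region, including 891 long non-coding RNA, 67 snoRNA and 60 miRNA genes. Among 27 gene lists, 20 had a share of genes whose interval lay above the 15.7% of all protein-coding genes. The interval of 1, the replication-dependent histone genes, lay below. A region requires an E2F1 peak, and 12321 of the 20098 protein-coding genes (61.3%) had one in a promoter window, a smaller share than in most lists. How far this enters the list shares was not tested.

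Genes of the ribosome were bound most widely. Of 84 cytosolic ribosomal protein genes, 74 had a region (88.1%, 79.5 to 93.4%). A 3-factor peak lay at 10 of the 84 (11.9%, 6.60 to 20.5%), also above the 2.89% of all protein-coding genes. Their strongest regions had a median MYC fold enrichment of 10.22, compared with 7.06 over all protein-coding genes with a region. RPL5 and RPL10A, described above, and RPS15 (20.8 for MYC and 58.0 for E2F1) had the largest values. Their summits lay 85, 88 and 75 bp downstream of the TSS.
Nucleolar ribosome biogenesis genes, which process rRNA and assemble subunits, followed with 68 of 88 (77.3%, 67.5 to 84.8%) and a median MYC fold enrichment of 9.75. NOP14, a factor of the small subunit, had 19.5 for MYC, behind PPAN and GNL3. Its E-box is shown as 1 example from this list.
NOP14, chr4:2965101-2965130: gctaccctaagaCACGTGccgggccgcgga
The lists differed in E-boxes. At the strongest region of each gene, CACGTG lay within 50 bp of the summit in 23 of 68 nucleolar genes (33.8%, 23.7 to 45.7%) and in 2 of 74 ribosomal protein genes (2.70%, 0.744 to 9.33%). The difference was 31.1 points (19.0 to 43.1). For any of the 5 E-box forms the shares were 63.2% (51.4 to 73.7%) and 18.9% (11.6 to 29.3%), a difference of 44.3 points (28.5 to 57.1). Over the 2456 distinct strongest regions of all protein-coding genes, CACGTG lay at 18.0% (16.6 to 19.6%) and any form at 41.3%. The ETS site also differed, with 30.9% against 6.76%, a difference of 24.1 points (11.5 to 36.5), whereas the interval for the GC box includes 0 (−4.21 points, −16.5 to 8.41). This comparison was chosen after the shares were seen. Ribosomal protein genes have many near-identical pseudogene copies elsewhere in the genome, and reads that mapped to several places were not counted by the authors, and the part of this in the values was not tested.
Other lists of the translation and RNA machinery had intermediate shares. Regions lay at 30 of 46 translation initiation factor genes (65.2%, 50.8 to 77.3%), led by EIF3D (20.1 for MYC), EIF5A (14.7) and EIF4A1 (13.3). They lay at 21 of 37 aminoacyl-tRNA synthetase genes (56.8%), led by FARSB (15.5), EARS2 (14.9) and IARS1 (13.9). Mitochondrial ribosomal protein genes had 32 of 78 (41.0%, 30.8 to 52.1%), below the interval of the cytosolic ones, with MRPL3 (18.0), MRPL20 (16.5) and MRPL45 (13.7) at the top. RNA polymerase subunits had 18 of 33 (54.5%), with POLR1C, shared by polymerases I and III, at 12.5, POLR2I at 11.4 and POLR3D at 10.9. CACGTG lay at 6 of these 18 strongest regions. Splicing factors had 35 of 57 (61.4%), led by HNRNPAB (19.0), SF3B3 (14.9) and SRSF7 (14.6), with CACGTG at 2 of 35 (5.71%, 1.58 to 18.6%). Host genes of small nucleolar RNAs had 16 of 28 (57.1%), with SNHG9 (15.2) after SNHG15 and SNHG16.

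Further lists covered metabolism, protein folding and turnover, and the nuclear pore. Of 37 nucleotide synthesis genes, 22 had a region (59.5%, 43.5 to 73.7%), led by NME2 (14.3), CTPS1 (13.1) and MTHFD1 (12.8). Heat shock and chaperonin genes had 28 of 41 (68.3%), with the mitochondrial chaperone HSPA9 at 13.1 and the chaperonin subunits CCT2 and CCT7 at 12.9 and 10.5. Nuclear pore genes had 14 of 21 (66.7%), led by NUP153 (13.1), NUP88 (12.2) and NUP35 (11.9), and these 3 were the ones with CACGTG among the 14 (21.4%, 7.57 to 47.6%). Mitochondrial carriers and import genes had 12 of 25 (48.0%), led by TOMM70 (12.5), TOMM34 (11.1) and TIMM13 (9.52). Proteasome subunits had 15 of 39 (38.5%), led by PSMD9 (14.8), PSMC4 (14.0) and PSMB3 (9.35). The respiratory chain was lower, at 20 of 83 (24.1%, 16.2 to 34.3%), led by NDUFV3 (17.5), ATP5MK (15.6) and ATP5MC2 (13.5).

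Cell-cycle genes are the classical targets of E2F. An E2F1 peak lay in a promoter window of 61.3% of all protein-coding genes, and most lists had a larger share. All 53 DNA replication genes had one, as did all 57 splicing factor genes, and 23 of the 53 (43.4%) had a region with MYC and no Fra-1. POLE3 (14.6 for MYC, 42.3 for E2F1), TOPBP1 (9.05 and 59.8) and TIPIN (8.84 and 58.3) led the list. CACGTG lay at 2 of 23, beside 18.0% of the strongest regions of all protein-coding genes. Of 52 DNA repair genes 22 had a region (42.3%), led by PMS2 (16.9), LIG3 (15.3) and UNG (13.3). CACGTG lay at 5 of the 22 (22.7%, 10.1 to 43.4%), these 3 included. Mitosis and kinetochore genes had 16 of 50 (32.0%, 20.8 to 45.8%), led by CENPP (13.6), AURKB (8.99) and MIS12 (8.84). The E2F motif lay within 50 bp of the MYC summit at 8 of the 23 strongest DNA replication regions (34.8%, 18.8 to 55.1%). It lay at 5 of 22 for DNA repair (22.7%, 10.1 to 43.4%) and 0 of 16 for mitosis, beside 2.20% for all protein-coding genes. These motif shares were chosen after they were seen.
Replication-dependent histone genes stood apart. Of 71, 41 (57.7%) had an E2F1 peak, beside 61.3% of all protein-coding genes. A region lay at 0 of the 71 (95% Wilson upper bound 5.13%). Reads that mapped to several places were not counted here either, and the part of this was not tested. Zinc finger ZNF genes were at the background of all protein-coding genes, with 78 of 508 (15.4%, 12.5 to 18.7%), led by ZNF460 (17.6), ZNF202 (15.6) and ZNF485 (14.8). An E2F1 peak lay in a promoter window of 426 of the 508 (83.9%), beside 61.3% of all protein-coding genes.
Adhesion and secreted factor genes had shares near or below the background. Integrin, laminin and focal adhesion genes had 7 of 48 (14.6%, 7.25 to 27.2%), and 25 (52.1%) had a Fra-1 peak in a promoter window, beside 13.2% of all protein-coding genes. The largest values were at ILK (7.72), LAMB2 (6.36) and ACTN1 (6.31). Lysosome and autophagy genes had 7 of 51 (13.7%), among them BECN1 (21.3), CTSC (9.45) and MITF (7.72). Cytokines and chemokines had 2 of 30 (6.67%, 1.85 to 21.3%). These were IL6, with 6.79 for MYC, 4.62 for E2F1 and a Fra-1 peak 280 bp away, and CSF1, with 5.67 and 6.02.

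**Figure D5:**
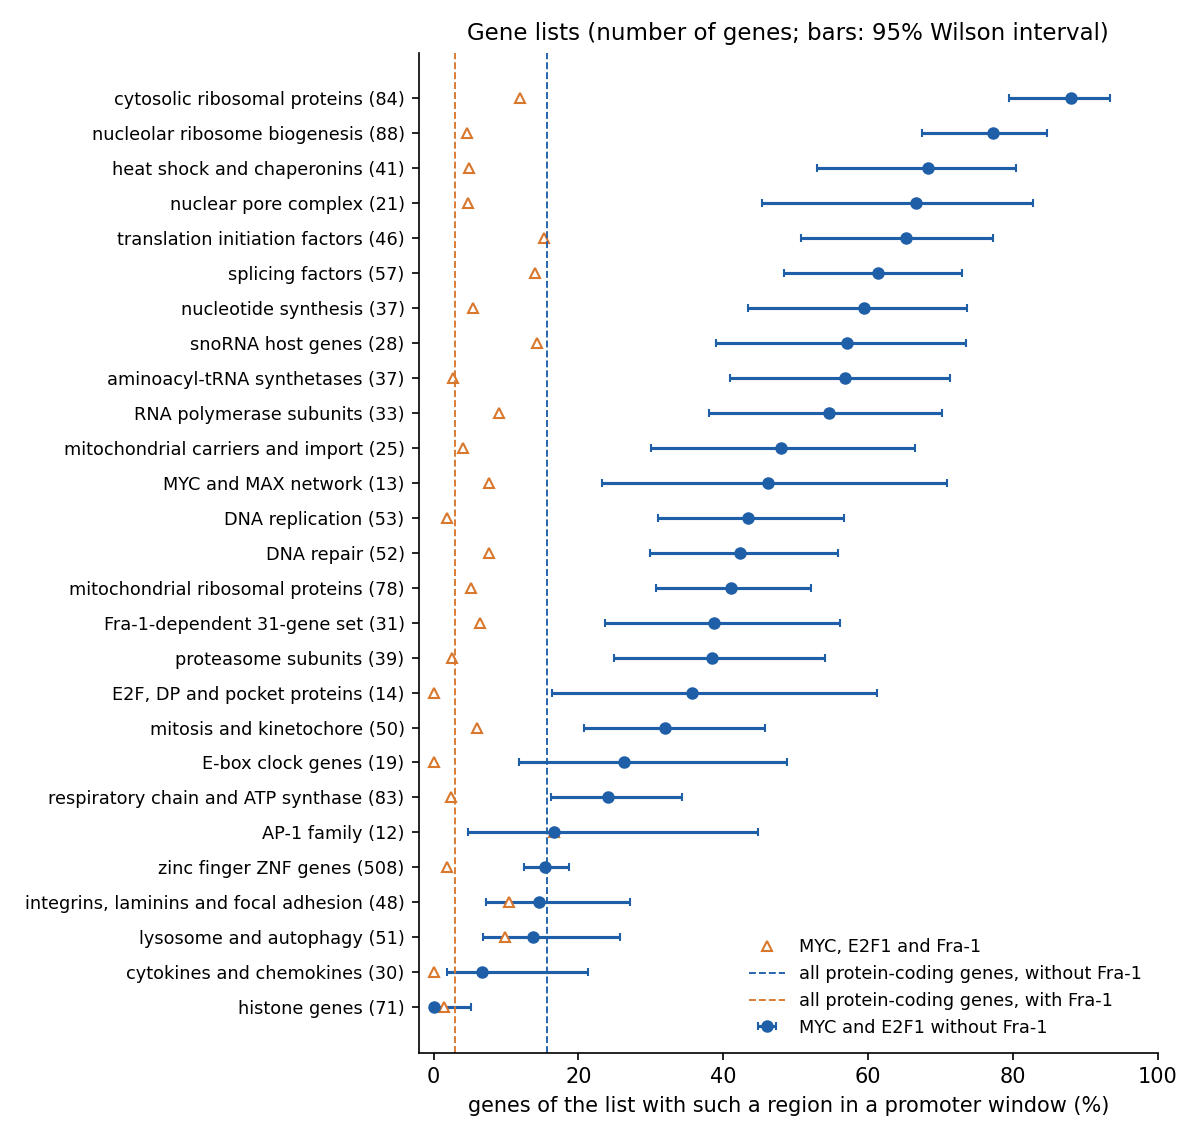
Share of the genes of each list (y axis, number of genes in brackets) with a region in a promoter window (x axis, percent), for the regions without Fra-1 (blue, 95% Wilson interval) and for 3-factor peaks (orange triangles), with dashed lines at 15.7% and 2.89% for all protein-coding genes. Cytosolic ribosomal protein genes are at 88.1% and replication-dependent histone genes (labelled histone genes) at 0.

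Of 13 MYC and MAX network genes, 6 had a region (46.2%, 23.2 to 70.9%), beside 15.7% of all protein-coding genes. MNT, a repressor that pairs with MAX, had 6 regions with up to 12.2 for MYC. MXD1 (8.79), MAX itself (8.22), MLX (7.61), MXD3 (7.49) and MXI1 (7.47) had lower values.
Of 14 E2F, DP and pocket protein genes, 5 had a region (35.7%, 16.3 to 61.2%), namely E2F5 (10.4), E2F8 (7.02), E2F3 (6.14), the pocket protein gene RBL1 (5.98) and E2F6 (5.69). None of the 14 had a Fra-1 peak in a promoter window, beside 13.2% of all protein-coding genes. With only 14 genes, these shares cannot be told apart. Of 12 AP-1 family genes, JUNB (6.65 for MYC, 61.3 for E2F1) and FOSB (5.27 and 21.2) had a region (16.7%, 4.70 to 44.8%), a share near that of all genes, and the Fra-1 peak nearest to the JUNB region was 495 bp away. Of 19 clock genes with E-boxes, 5 had a region (26.3%, 11.8 to 48.8%, an interval that includes 15.7%), with CACGTG at NR1D1 (12.4) and PER1 (7.44) and not at DBP (9.21). The Fra-1 peak nearest to the NR1D1 region was only 65 bp away. Capitals below mark the CACGTG nearest to the summit. The NR1D1 window also holds another CACGTG within 50 bp of the summit, in lower case.
NR1D1, chr17:38255391-38255436: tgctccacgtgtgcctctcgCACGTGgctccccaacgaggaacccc
PER1, chr17:8055870-8055915: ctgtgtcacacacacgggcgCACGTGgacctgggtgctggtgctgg

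The study chose a set of 31 genes whose expression fell with Fra-1 depletion and that were high in tumours of poor prognosis. Of these, 12 had a region (38.7%, 23.7 to 56.2%), 7 (22.6%) had a Fra-1 peak of any kind in a promoter window, and all 31 had an E2F1 peak, beside 13.2% and 61.3% of all protein-coding genes. From the nine-gene subset required for lung colonisation, PAICS, ADORA2B and SFN had a region. PAICS, an enzyme of purine synthesis, had 11.4 for MYC and 28.5 for E2F1, with the nearest Fra-1 peak 205512 bp away. ADORA2B, an adenosine receptor, had 8.67 and 38.9, with a Fra-1 peak at 3192 bp. SFN, which encodes 14-3-3 sigma, had 5.53 and 64.6, with a Fra-1 peak at 323 bp.
The other 9 were TJAP1 (9.52 for MYC), the mitotic kinase gene AURKB (8.99), the histone variant gene H2AZ1 (7.65), the desaturase gene SCD (7.04), CENPM (6.79), YTHDF1 (6.72), the replication helicase gene MCM2 (6.14), MED20 (5.73) and the flap endonuclease gene FEN1 (5.29). E2F1 fold enrichment exceeded MYC fold enrichment at all of the 12 genes except TJAP1 (5.70). CACGTG lay at the summits of H2AZ1, CENPM and MCM2, whereas the PAICS region held CATGCG, shown in capitals. The PAICS window also opens with CACGAG, another of the 5 E-box forms, in lower case.
H2AZ1, chr4:100871719-100871764: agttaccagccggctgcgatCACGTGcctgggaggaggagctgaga
CENPM, chr22:42342367-42342412: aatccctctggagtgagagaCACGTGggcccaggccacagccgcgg
MCM2, chr3:127317231-127317260: gctttggtgggtCACGTGaaccacttttcg
PAICS, chr4:57301530-57301575: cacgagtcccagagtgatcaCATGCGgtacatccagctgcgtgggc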

How the data were processed

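Reads had been trimmed by the authors with Trimmomatic and mapped with Bowtie 0.12.5 to a masked hg19 (versions per the submitters' processing notes). Peaks of each library were called by the authors on unique reads against 1 shared input, using MACS2 at a q cutoff of 0.01. The lists hold a pileup signal deposited for each summit, a fold enrichment, which is the authors' ratio of that pileup to the local input background, and p- and q-values on a −log10 scale, also as the authors gave them. After removal of repeated tags, 23853621 tags were left for MYC, 18056168 for E2F1, 12931227 for Fra-1 and 10758036 for the input.

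Here, 10 MYC, 32 E2F1 and 9 Fra-1 peaks on other sequences were left out, and overlap was counted from 1 bp. Genes and start sites came from GENCODE 44 mapped to GRCh37. A gene had a region when a region overlapped the window of any of its start sites. Motifs were searched on both strands in 101 bp around summits. Shares have 95% Wilson intervals, differences Newcombe intervals and medians order-statistic intervals. With 1 library per factor no test between samples was possible, and no p-value was computed. The members and gene lists were chosen with earlier results of these data known. Named genes are those at the 12 strongest regions by MYC fold enrichment and the 5 strongest outside promoters, the top 3 of each list, those of the MYC, E2F, AP-1 and nine-gene lists with a region, those at E2F1 peaks with the most regions, and the edges of the rule. The other genes of the 31-gene set, the E-box comparison of the ribosomal lists and the E2F motif shares of the cell-cycle and repair lists were chosen after their values were seen. Scripts were tested on simulated data. Alternatives were stricter thresholds, equal list lengths, and other overlap rules, promoter windows, start sites and motif windows. Calculations used Python 3.11.15 with pandas 2.3.3, pysam 0.24.0, numpy 2.4.6, matplotlib 3.10.9 and scipy 1.17.1.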

Additional observations from a re-analysis of the deposited data

How the results depend on the processing

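Of 179 values under alternatives, 113 stayed within the interval or 1.5 times the count of the main value, 66 moved further and 0 changed sign. No paired analysis was possible because there was 1 library per factor. Intervals hold counting error only, antibodies and depths differed between factors, and Fra-1 signal below the peak threshold was not analysed here.

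With −log10 q of at least 5 in all lists, 2351 regions remained, with CACGTG at 21.0%, any E-box form at 45.7%, a CpG ratio of 0.794, summits 76 bp apart, a median Fra-1 distance of 43825 bp, 92.0% within 1 kb of a TSS and 95.2% in promoter windows. With fold enrichment of at least 5, the Fra-1 distance was 41213.5 bp. With each list at the length of the shortest there were 2405 regions, with CACGTG at 13.6%, any form at 37.05%, the E2F motif at 2.91%, the AP-1 site at 1.21% (−36.5 points from 3-factor peaks), a CpG ratio of 0.821, summits 98 bp apart, a Fra-1 distance of 142370 bp, 96.1% within 1 kb and 97.6% in promoter windows (28.7 points above 3-factor peaks).

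When MYC and E2F1 peaks had to cover at least 50% of each other, 577 regions were left, at 584 protein-coding genes, 16 ribosomal protein genes and 21 nucleolar genes, and 12 lists had an interval above the share of all genes. CACGTG was then at 26.0%, any form at 51.1%, the E2F motif at 1.04%, the CpG ratio 0.771, G and C 64.5%, the summit distance 46 bp, the share within 1 kb 84.7% (difference 50.2 points) and the promoter share 89.6% (difference 44.3 points). With summits within 250 bp, the CpG ratio was 0.795, the summit distance 54 bp and the Fra-1 distance 40220 bp.

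With no Fra-1 peak under the E2F1 peak, the summit distance was 77 bp, the Fra-1 distance 42875 bp, the share within 1 kb 91.8% (difference 36.5 points), the promoter difference 29.4 points and the AP-1 difference −19.7 points. With none within 1 kb, the CpG ratio was 0.793, the Fra-1 distance 44795.5 bp, the share within 1 kb 92.0% (difference 34.9 points), the promoter difference 27.9 points and the AP-1 difference −18.3 points.

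In windows of 100 bp to either side, CACGTG was at 23.7%, any form at 57.4%, the E2F motif at 3.75% and the AP-1 site at 1.75% (−37.3 points). Over the whole peak these were 24.9%, 56.0%, 4.65% and 1.70% (−34.1 points), and the CACGTG difference was 5.99 points. When only protein-coding genes gave start sites, 85.8% lay within 1 kb and 89.6% in promoter windows, and with windows of 1 kb to either side 91.5% did (difference 41.2 points).

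The excess of CACGTG over 3-factor peaks had an interval that includes 0 with summits within 250 bp (2.51 points, −0.236 to 5.04), with 50% mutual cover (1.33, −5.62 to 7.73) and with equal lists (4.12, −3.07 to 8.58). Outside promoter windows the excess had such an interval with 50% mutual cover (9.54, −3.65 to 23.7) and equal lists (9.46, −5.85 to 21.7), and was 8.46 points when only protein-coding genes gave start sites. The cause of these changes was not tested.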

Other observations

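The regions were unevenly spread over the chromosomes. A region lay in a promoter window of 23.6% of the protein-coding genes of chromosome 17 (21.3 to 26.1%) and 22.4% of those of chromosome 19 (20.4 to 24.6%). The shares were 6.39% on chromosome 18 (4.03 to 10.0%) and 5.41% on chromosome X (4.09 to 7.12%), compared with 15.7% over all. Copy number in these cells was not measured here.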
